A study of Lymantria dispar dispar and Lymantria dispar asiatica with 30 samples.

Results

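The step from day 8 to day 11 after pupation was followed in European spongy moths (ESM, label strain CT) by comparing 3 female pupae of day 11 with 3 female pupae of day 8 across all genes of the deposited expression table. These 6 libraries are 6 of the 30 in the series, and each is 1 whole pupa homogenised on its own, so the replicates are separate animals. The other libraries are ESM pupae of days 1, 3 and 5 and Asian spongy moths (ASM, label strain RM) of the same 5 days, with 3 female pupae in each of the 10 groups. ESM pupae came from 1 colony in laboratory generation 32, whose larvae fed on a diet with 0.13 g of amorphous FePO4 per litre. ASM pupae came from another colony in laboratory generation 34, with 0.21 g per litre. Strain, colony and diet cannot be told apart where the strains are compared, whereas both days within ESM share them. Generation and diet are taken from the methods of the study. The labels give no allele and no treatment, and they name a stage and not a tissue.

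During the pupal stage of a moth the larval tissues are broken down or remodelled and the adult organs are built. The epidermis lays down the cuticle of the adult beneath that of the pupa, from chitin and many structural proteins whose genes are transcribed in short windows set by the moulting hormone ecdysone. Towards eclosion this cuticle hardens and darkens, while flight muscle, eggs and sense organs mature.

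Levels below are normalised counts, that is reads per gene recovered from the deposited values and divided by the size factor of the library. Differences are given in VST units, the scale of the deposited variance-stabilised values, as day 11 minus day 8. The size of a VST unit depends on the level, since a doubling of the normalised count is 0.849 units at a count of 10, 1.70 at 200 and 0.652 at 10000, so each fold is a ratio of mean normalised counts. Each difference was tested with limma, whose standard errors rest on the spread within all 10 groups, and Benjamini-Hochberg adjustment covered the 19652 genes tested. Genes with an adjusted p under 0.05 are described as called, and "rose" and "fell" are used of called genes only. The 3 day 11 libraries held 4812993, 5744826 and 7179351 reads, against 3145784, 4995690 and 6719053 in the 3 day 8 libraries. A gene at 0 reads may have up to 3 reads in a library, and such limits cover counting error only. Gene descriptions are homology names from the study, available for 574 of the genes tested. They come from its text and its tables of flight candidates and pupal expression. Part of these genes were chosen on these same libraries, so described genes are not a random sample.

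The libraries of a day resembled each other more than those of the other day. Over 11969 genes with a mean of at least 20 reads, Pearson's r of the VST values was 0.961 to 0.974 between pupae of a day and 0.828 to 0.855 between pupae of different days. One library stood apart, less by the number of genes high in it alone than by how many of them were called. In the day 8 pupa of replicate 2, 120 genes with at least 10 normalised counts lay at 3 times or more the level of both other day 8 pupae, against 99 genes for replicate 1 and 49 for replicate 3. Of these genes, 23, 3 and 2 were called as lower on day 11, in the same order of the pupae. For the day 11 pupae of replicates 1, 2 and 3 such genes numbered 88, 64 and 58, of which 8, 1 and 0 were called as higher. The Osiris gene Lda.6827, the tweedle gene Lda.15281 and catalase Lda.20867 are among the genes of replicate 2. Many results that rest on that pupa are therefore given with and without it.

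Between day 8 and day 11 more genes fell than rose in ESM pupae. A total of 1685 genes were called, which is 8.57% of the genes tested, with 625 (3.18%) higher and 1060 (5.39%) lower on day 11. At an unadjusted p under 0.05 there were 3926 genes, and with the 6 ESM libraries alone in the fit 2617 genes were called, 1056 higher and 1561 lower. Without the day 8 pupa of replicate 2, 1128 genes (5.74%) were called, 395 higher and 733 lower, and 1086 genes were called both with and without it. The 3 day 11 pupae did not overlap the 3 day 8 pupae in 6286 genes (32.0% of those tested), and 1666 of the 1685 called genes were among them. The median ratio was 3.31 for genes that rose and, as day 8 over day 11, 3.70 for genes that fell, over genes with reads on both days. Ratios of at least 8 were held by 131 genes that rose and 306 that fell, and ratios of at least 100 by 13 and 60. Among described genes, 16 rose and 34 fell of 574. Each library is a whole pupa, so fewer cells of a type and less RNA per cell cannot be told apart for any gene below.

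Cuticle protein genes were among the described genes with the deepest falls. Of 7 cuticle genes tested, 3 fell and none rose, with a median difference of -3.09 VST units, beside -0.000235 over all genes tested, of which 5.39% fell. Lda.23652, described as a cuticle protein, a structural protein of insect cuticle, had 0, 0 and 0.575 normalised counts in the day 11 pupae, against 870.2, 3698 and 1294 in those of day 8. The day 11 libraries held a single read of it between them, while every day 8 pupa held many. Its ratio of pooled counts, day 8 over day 11, was 8642 with a 95% counting interval of 1551 to 341412, and its difference was -11.58 VST units (standard error 0.51, adjusted p = 1.91e-14). On days 1, 3 and 5 its means were 0.521, 0 and 0 normalised counts, so that day 8 was the only one of the 5 sampled days with more than 1 normalised count on average.

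A pair of tweedle genes, of an insect cuticle protein family named after a body-shape mutant of the fruit fly, fell to a few reads. Lda.20030 had 1.84, 1.33 and 0 normalised counts on day 11, against 301, 617 and 192 on day 8. It was 349.7-fold lower on day 11, at -8.29 VST units (standard error 1.11, adjusted p = 1.23e-05). Lda.12768, with the same description, had 0.921, 2.00 and 0 on day 11 and 229.7, 478 and 136 on day 8, a 289-fold lower level (-7.65 VST units, standard error 1.04, adjusted p = 1.49e-05). In both genes the day 8 pupa of replicate 2 was the highest, and both stayed called without it (adjusted p = 0.000260 and 0.000322). Their means on day 5 were higher still, at 12153 and 9013 normalised counts. Reads shared between such similar genes could not be separated here. A further tweedle gene, Lda.15281, had 0, 0 and 0 on day 11 and 0, 51.7 and 1.41 on day 8, where almost all reads came from replicate 2, and it was not called (adjusted p = 0.288, and 0.940 without that pupa).

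The pupal cuticle protein C1B-like gene Lda.37310, which was singled out after its values were seen, was not called although its pupae did not overlap. It had 905, 1533 and 744 normalised counts on day 11, against 10908, 9968 and 13206 on day 8. The day 11 mean was 10.7-fold below that of day 8, at -3.09 VST units (standard error 1.14, adjusted p = 0.105). The call depended on the model, with an adjusted p of 0.00389 with voom, the model of limma for counts, on the recovered counts and 0.000117 when only the 6 ESM libraries entered the fit, whose spread leaves out the other groups. It was also called on both log2 scales of the normalised count (0.0433 with 1 added and 0.00810 with 10 added) and with the 15 ESM libraries alone (0.0276). It was 1 of 22 genes that were not called although the days did not overlap, the ratio was at least 4 and a mean was at least 100. Of the remaining cuticle genes, Lda.16832 (obstructor-E, a chitin-binding protein in the fruit fly) had 25.8, 50.6 and 38.6 on day 11 and 28.9, 45.8 and 20.4 on day 8 (adjusted p = 0.843), and Lda.38912, a rigid cuticle protein, had no read on either day.

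**Figure D1:**
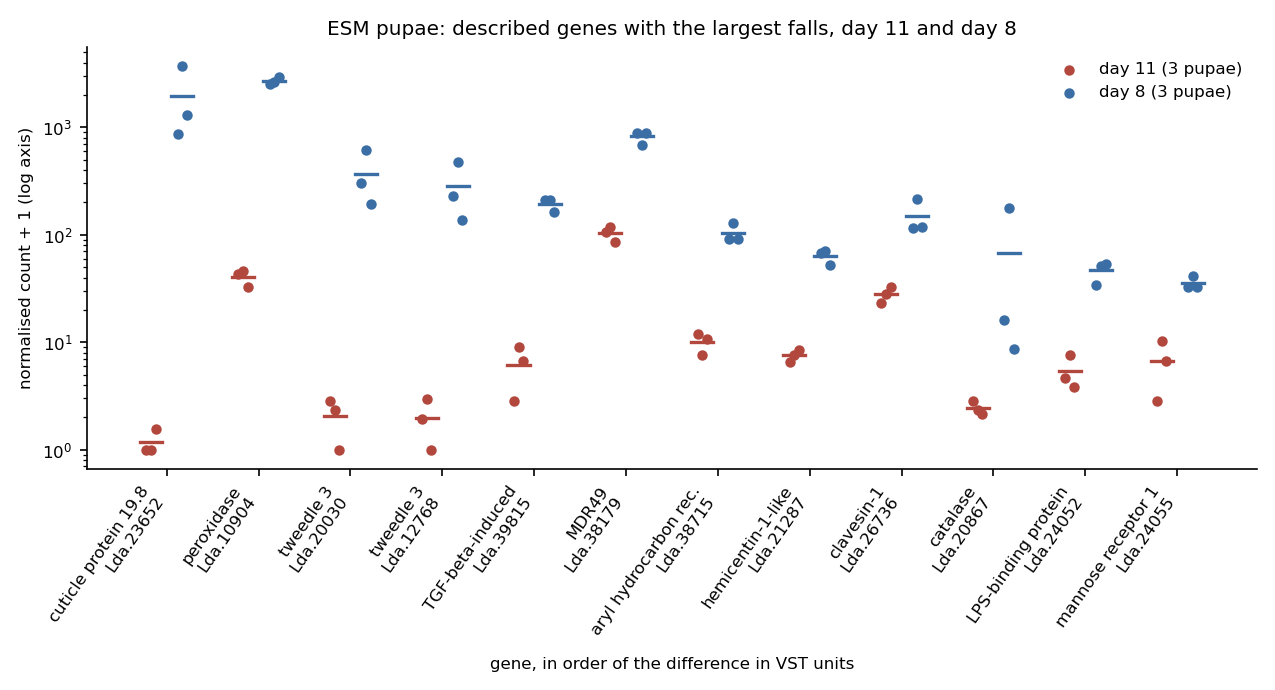
Normalised counts plus 1 (log axis) of the 12 described genes with the deepest falls in VST units, in the 3 ESM pupae of day 11 (red) and the 3 of day 8 (blue), with each point a pupa and each line a group mean. In every gene shown the 3 day 11 pupae lie below the 3 day 8 pupae, as the choice of genes required. In catalase Lda.20867 the day 8 mean is carried by 1 pupa at 176 normalised counts.

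Several antioxidant enzymes, which act on peroxides or superoxide, fell. Of 12 peroxisome and antioxidant genes tested, a list that also holds genes of peroxisome biogenesis, of transport and of lipid oxidation, 4 fell and none rose (median difference -0.43 VST units). Over all genes tested, 5.39% fell and 3.18% rose. Without the day 8 pupa of replicate 2 the list had 3 falls. Lda.10904, described as a peroxidase, an enzyme that oxidises other molecules with hydrogen peroxide, had 42.4, 45.3 and 31.7 normalised counts on day 11, against 2530.1, 2616 and 2903 on day 8. The pupae of each day lay close together, and the level on day 11 was 67.5-fold lower (-8.40 VST units, standard error 1.32, adjusted p = 0.000101). Its means on days 1, 3 and 5 were 85.5, 5.23 and 11.0, so day 8 was its highest sampled day. Lda.21519, a superoxide dismutase, which turns superoxide into hydrogen peroxide and oxygen, had 398, 374 and 357 on day 11 and 1094, 829 and 1004 on day 8. It was 2.59-fold lower on day 11 (-1.88 VST units, standard error 0.39, adjusted p = 0.00248), whereas the other superoxide dismutase of the list, Lda.19357, had 1269, 1087 and 1227 on day 11 and 948, 1009 and 961 on day 8 and was not called (adjusted p = 0.238).

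Peroxidasin Lda.18515, an extracellular peroxidase that cross-links collagen IV in the fruit fly, had 159, 163 and 169.8 normalised counts on day 11 and 349.9, 314 and 285 on day 8. With no overlap it was 1.93-fold lower on day 11 (-1.60 VST units, standard error 0.29, adjusted p = 0.000495). Catalase, which breaks down hydrogen peroxide in peroxisomes, was called in Lda.20867 only, with 1.84, 1.33 and 1.15 on day 11 and 15.2, 176 and 7.73 on day 8. The day 8 pupa of replicate 2 stood more than 10 times above the other day 8 pupae, and the call (-3.27 VST units, standard error 0.85, adjusted p = 0.0144) was lost without it (adjusted p = 0.121), and also with voom (adjusted p = 0.0907) and with the 6 ESM libraries alone (0.109). Catalase Lda.20862 had 5.53, 3.33 and 0 on day 11 and 3.04, 24.4 and 10.5 on day 8 and was not called (adjusted p = 0.136), except as lower on day 11 without the day 8 pupa of replicate 1 (0.0302). Without the day 8 pupa of replicate 2 its adjusted p was 0.573. Peroxidasin was chosen after its values were seen, as were the other called list members named below outside the rule, which are 2-oxoglutarate dehydrogenase, an ATP synthase assembly factor and calmodulin.

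A TGF-beta-induced protein, a hemicentin-like gene and a lipid carrier also fell. Lda.39815, described as TGF-beta-induced protein ig-h3, a secreted matrix protein in mammals, had 1.84, 7.99 and 5.75 normalised counts on day 11, against 208, 208 and 160.3 on day 8. Its level on day 11 was 36.96-fold lower (-6.17 VST units, standard error 1.41, adjusted p = 0.00528), and with voom it was not called (adjusted p = 0.105). Lda.21287, hemicentin-1-like, a matrix protein of the immunoglobulin superfamily, had 5.53, 6.66 and 7.48 on day 11 and 66.9, 70.2 and 51.3 on day 8. It was 9.58-fold lower (-3.42 VST units, standard error 0.45, adjusted p = 1.07e-05), after means of 2189, 1517 and 829 on days 1, 3 and 5. Lda.26736, clavesin-1, a lipid-binding protein of the CRAL-TRIO family, had 22.1, 27.3 and 31.7 on day 11 and 114, 216 and 117 on day 8, a 5.52-fold lower level (-3.28 VST units, standard error 0.67, adjusted p = 0.00206). Lda.21287 was the only called member of 27 cell adhesion and actin genes, beside 8.57% called of all genes tested. The median difference of the list was -0.30 VST units. The 4 other hemicentins of that list were not called, with differences of -0.25 and -0.18 VST units for Lda.21279 and Lda.21288 and of 0.28 and 0.33 for Lda.23099 and Lda.40411 (adjusted p = 0.683 to 0.958).

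Clavesin belongs to 15 storage proteins and small-molecule carriers, of which 2 fell (1 without the day 8 pupa of replicate 2) and none rose, beside 5.39% and 3.18% of all genes tested (median -0.26). The other was Lda.458, a takeout protein, of a family of small-molecule carriers of which the founding fruit fly member is under circadian control. It had 64.5, 43.97 and 61.0 normalised counts on day 11 and 132, 216 and 181 on day 8, a 3.13-fold lower level without overlap (-2.46 VST units, standard error 0.67, adjusted p = 0.0208). The call was lost in several alternatives, with an adjusted p of 0.0968 without the day 11 pupa of replicate 2, 0.103 without the day 8 pupa of replicate 2 and 0.0616 without the day 8 pupa of replicate 3, and of 0.234 on the log2(normalised count + 1) scale. The takeout gene Lda.26596 had no read in any of the 6 pupae. An alpha-tocopherol transfer protein-like gene that the study names, of a family that binds vitamin E in mammals, had 0, 0 and 0 on day 11 and 0, 27.3 and 0 on day 8, with all its reads in replicate 2, and was not called (adjusted p = 0.673), after a mean of 36164 on day 5.

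Of 12 immune recognition and protease cascade genes tested, 3 fell and none rose, beside 5.39% and 3.18% of all genes tested. The median of the list was -0.02 VST units, and without the day 8 pupa of replicate 2 there were 2 falls. Lda.24052, a haemolymph lipopolysaccharide-binding protein, a lectin first known from the cockroach, had 3.68, 6.66 and 2.88 normalised counts on day 11, against 33.5, 50.7 and 52.7 on day 8. It was 10.4-fold lower (-3.18 VST units, standard error 0.70, adjusted p = 0.00393). Lda.24055, described as macrophage mannose receptor 1, a lectin of mammalian phagocytes, had 1.84, 9.33 and 5.75 on day 11 and 31.9, 39.96 and 31.6 on day 8. It was 6.12-fold lower (-2.55 VST units, standard error 0.66, adjusted p = 0.0135), with an adjusted p of 0.0786 without the day 11 pupa of replicate 1 and 0.0596 without the day 8 pupa of replicate 2, and of 0.105 with voom. Both genes had their highest means on day 1, at 1037 and 2699 normalised counts, and their lowest on day 11.

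Lda.8759, an MD-2-related lipid-recognition protein, of a family that includes a partner of Toll-like receptors in vertebrates, had 26.7, 13.3 and 24.7 normalised counts on day 11 and 54.8, 56.5 and 68.9 on day 8. The 2.78-fold lower level was called (-1.82 VST units, standard error 0.47, adjusted p = 0.0133), with an adjusted p of 0.102 without the day 11 pupa of replicate 2 and 0.0568 without the day 8 pupa of replicate 3. A second haemolymph lipopolysaccharide-binding protein, Lda.11807, had 5140.5, 3439 and 3141 on day 11 and 5305, 4125 and 6845 on day 8, and these groups overlapped (adjusted p = 0.859).

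A transporter and a transcription factor known from responses to foreign compounds fell as well. Lda.38179, described as multidrug resistance protein homolog 49, an ABC transporter that exports lipophilic compounds in the fruit fly, had 104, 118 and 85.2 normalised counts on day 11, against 890.0, 688 and 882 on day 8. Its level was 8.01-fold lower (-4.67 VST units, standard error 0.85, adjusted p = 0.000552). It was the only called member of 12 xenobiotic enzymes and transporters (median -0.43), beside 8.57% called of all genes tested. Day 8 was its highest sampled day, above means of 75.3, 127 and 71.9 on days 1, 3 and 5. Lda.38715, the aryl hydrocarbon receptor, whose fruit fly homolog spineless sets the identity of antenna and leg, had 11.1, 6.66 and 9.78 on day 11 and 89.8, 127 and 90.0 on day 8. It was 11.1-fold lower without overlap (-4.05 VST units, standard error 0.89, adjusted p = 0.00356), and its means on days 1, 3 and 5 were 55.5, 229 and 39.97.

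Several of the described genes that rose encode receptors, transporters and metabolic enzymes. The largest of these differences in VST units was that of Lda.27831, described as the EP3 receptor for prostaglandin E2, a G protein-coupled receptor in mammals, with 427, 390.4 and 308 normalised counts on day 11, against 80.6, 106 and 114 on day 8. It was 3.74-fold higher without overlap (3.13 VST units, standard error 0.64, adjusted p = 0.00207). Lda.11987, sorbitol dehydrogenase, which oxidises sorbitol to fructose, had 928, 781 and 547 on day 11 and 271, 239.7 and 192 on day 8. All 3 day 11 pupae stood above those of day 8, by 3.21-fold on average (2.49 VST units, standard error 0.56, adjusted p = 0.00439), and the means of days 1, 3 and 5 were 99.6, 85.9 and 79.8. Both calls held in each of the alternatives tried.

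Carriers of ions and of amino acids were among the genes that rose. Lda.12060, anion exchange protein 2, which swaps chloride for bicarbonate in vertebrates, had 291, 385 and 277 normalised counts on day 11 and 151, 117 and 102 on day 8. It was 2.58-fold higher (2.29 VST units, standard error 0.57, adjusted p = 0.0104), with an adjusted p of 0.0617 without the day 11 pupa of replicate 2 and 0.0512 without the day 8 pupa of replicate 3, and of 0.0593 on the log2(normalised count + 1) scale. Lda.32369, like the fruit fly's proton-coupled amino acid transporter CG1139, had 299, 374 and 302 on day 11 and 145, 136 and 195 on day 8, a 2.05-fold higher level (1.76 VST units, standard error 0.43, adjusted p = 0.00984), with an adjusted p of 0.0576 without the day 11 pupa of replicate 2 and 0.0578 without the day 8 pupa of replicate 2. Lda.3927, cationic amino acid transporter 2, of a family that carries arginine and lysine, had 160.3, 178 and 210.0 on day 11 and 125, 98.4 and 97.0 on day 8, a 1.71-fold higher level (1.2799 VST units, standard error 0.36, adjusted p = 0.0232). Its call was lost without any 1 of several pupae, at an adjusted p of 0.0617 without the day 11 pupa of replicate 2, 0.120 without the day 11 pupa of replicate 3, 0.0913 without the day 8 pupa of replicate 2 and 0.0840 without the day 8 pupa of replicate 3, and with the 15 ESM libraries alone (0.0523). In each of these carriers the lowest day 11 pupa was above the highest of day 8, which the rule for naming genes required.

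Lda.13353, a homolog of mammalian EGLN1, the prolyl hydroxylase that marks hypoxia-inducible factor for breakdown when oxygen is present, had 199.9, 193 and 169 normalised counts on day 11, against 91.3, 79.9 and 102 on day 8. It was 2.06-fold higher (1.69 VST units, standard error 0.28, adjusted p = 0.000204), above means of 104, 99.7 and 102 on days 1, 3 and 5. Lda.36672, the homolog of HNF-4, a nuclear receptor that controls lipid use in the fruit fly, had 648, 503 and 427 on day 11 and 289, 277 and 285 on day 8. The day 8 pupae lay close together, and day 11 was 1.85-fold higher (1.31 VST units, standard error 0.22, adjusted p = 0.000232). Of 25 developmental transcription factors and TGF-beta signalling genes tested, HNF-4 was the only one that rose and the aryl hydrocarbon receptor the only one that fell (median 0.11). Over all genes tested, 3.18% rose and 5.39% fell. Among the listed genes not called was the ecdysone-inducible receptor E75, Lda.21602, with 939, 891 and 1037 on day 11 and 1027, 1186 and 840.1 on day 8 (adjusted p = 0.927).

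Both genes described as mitochondrial uncoupling protein 4, a carrier of the inner mitochondrial membrane that is most abundant in mammalian nervous tissue, rose. Lda.5043 had 319.7, 336 and 181 normalised counts on day 11 and 166, 104 and 180.0 on day 8, and Lda.5584 had 202, 195 and 111.6 on day 11 and 95.8, 63.3 and 105 on day 8. Replicate 3 of day 11 was the lowest of its day in both genes and lay just above the highest day 8 pupa. The difference was 1.48 VST units (standard error 0.46, adjusted p = 0.0468) for Lda.5043, a ratio of 1.86, and 1.48 VST units (standard error 0.43, adjusted p = 0.0322) for Lda.5584, a ratio of 1.93. Many alternatives ended these calls. For Lda.5043 the adjusted p was 0.184 without the day 11 pupa of replicate 1, 0.228 without the day 11 pupa of replicate 2, 0.0717 without the day 8 pupa of replicate 1 and 0.269 without the day 8 pupa of replicate 2, 0.0665 with the 6 ESM libraries alone, and 0.107 and 0.0701 on the log2 scales of the normalised count plus 1 and plus 10. For Lda.5584 it was 0.158 without the day 11 pupa of replicate 1, 0.159 without the day 11 pupa of replicate 2, 0.0586 without the day 8 pupa of replicate 1 and 0.186 without the day 8 pupa of replicate 2, 0.0730 with the 15 ESM libraries alone, 0.0520 with the 6 ESM libraries alone and 0.123 on the log2(normalised count + 1) scale.

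Lda.34641, multiple inositol polyphosphate phosphatase 1, which removes phosphate groups from inositol polyphosphates, had 158, 134 and 90.9 normalised counts on day 11 and 54.8, 55.6 and 71.7 on day 8. It was 2.11-fold higher (1.53 VST units, standard error 0.45, adjusted p = 0.0315), with an adjusted p of 0.160 without the day 11 pupa of replicate 1, 0.109 without the day 11 pupa of replicate 2, 0.108 without the day 8 pupa of replicate 1 and 0.106 without the day 8 pupa of replicate 2, and of 0.302 on the log2(normalised count + 1) scale. Lda.4779, a probable serine hydrolase, an enzyme with a serine in its active site, had 114, 123 and 129 on day 11 and 68.5, 52.6 and 74.5 on day 8. Its 1.87-fold higher level (1.33 VST units, standard error 0.36, adjusted p = 0.0178) was likewise lost when single pupae were left out, at an adjusted p of 0.0584 without the day 11 pupa of replicate 2, 0.0704 without the day 11 pupa of replicate 3 and 0.105 without the day 8 pupa of replicate 2. Lda.22240, described as neuropeptide Y receptor type 2, a G protein-coupled receptor in mammals, had 9.21, 14.7 and 6.33 on day 11 and 0, 0 and 4.22 on day 8, where only replicate 3 had reads. Its ratio of 7.16 rests on few reads, and the call (1.57 VST units, standard error 0.39, adjusted p = 0.00976) had an adjusted p of 0.0775 without the day 11 pupa of replicate 2, 0.0608 without the day 8 pupa of replicate 1 and 0.0629 without the day 8 pupa of replicate 2.

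**Figure D2:**
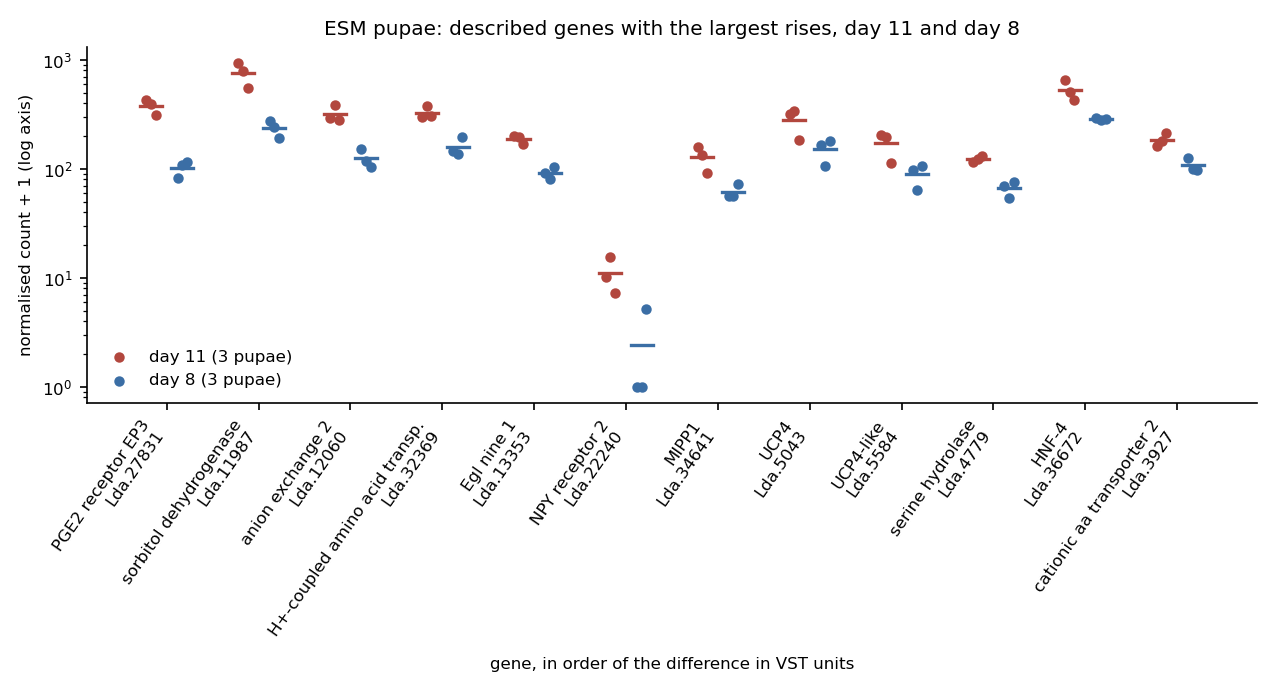
Normalised counts plus 1 (log axis) of the 12 described genes with the steepest rises in VST units, in the 3 ESM pupae of day 11 (red) and the 3 of day 8 (blue), with each point a pupa and each line a group mean. In every gene shown the day 11 pupae lie above the day 8 pupae, as the choice of genes required. The day 11 mean is 1.71-fold higher in cationic amino acid transporter 2 and 3.74-fold higher in the prostaglandin receptor. The widest ratio is that of neuropeptide Y receptor 2, where day 8 has almost no reads.

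Genes of sugar and energy metabolism moved in both directions. Of 20 tested, 3 rose and 2 fell, beside 3.18% and 5.39% of all genes tested, with a median of 0.37 VST units. Without the day 8 pupa of replicate 2, 2 rose and 1 fell. The risers were sorbitol dehydrogenase and the uncoupling proteins. Lda.27972, 2-oxoglutarate dehydrogenase of the citric acid cycle, had 2155, 2272 and 2172 normalised counts on day 11, against 4029, 3433 and 3795 on day 8, a 1.71-fold lower level (-0.69 VST units, standard error 0.19, adjusted p = 0.0247). Lda.21546, an assembly factor of the mitochondrial ATP synthase, had 106, 119 and 105 on day 11 and 164, 150.1 and 163 on day 8, a 1.45-fold lower level (-0.88 VST units, standard error 0.25, adjusted p = 0.0290). Both falls were without overlap, and both lost their call without single pupae. The adjusted p was 0.0754 without the day 11 pupa of replicate 1, 0.0602 without the day 11 pupa of replicate 2, 0.0747 without the day 11 pupa of replicate 3, 0.0943 without the day 8 pupa of replicate 1 and 0.0664 without the day 8 pupa of replicate 3 for Lda.27972, and 0.0946 without the day 11 pupa of replicate 1, 0.103 without the day 11 pupa of replicate 3, 0.0968 without the day 8 pupa of replicate 1, 0.0531 without the day 8 pupa of replicate 2 and 0.0823 without the day 8 pupa of replicate 3 for Lda.21546. The trehalose transporter Lda.18357, of the family that moves the blood sugar of insects, had 164, 176 and 141 on day 11 and 59.3, 59.4 and 99.1 on day 8 and was not called (adjusted p = 0.0846).

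In the list of neuronal excitability, synapse and guidance genes, 1 rose (the neuropeptide Y receptor) and 3 fell of 29 tested, beside 3.18% and 5.39% of all genes, with a median of -0.25 VST units. Without the day 8 pupa of replicate 2, 0 rose and 1 fell. Lda.4585, kainate 2, a glutamate-gated ion channel, had 387, 282 and 353 normalised counts on day 11, against 1086, 999.9 and 575 on day 8. It was 2.60-fold lower (-1.88 VST units, standard error 0.48, adjusted p = 0.0118), with an adjusted p of 0.0706 without the day 11 pupa of replicate 2, 0.0713 without the day 8 pupa of replicate 1 and 0.0613 without the day 8 pupa of replicate 2. Lda.11417, plasma membrane calcium-transporting ATPase 2, which pumps calcium out of the cell, had 1491, 1296 and 1483 on day 11 and 3482, 3242 and 2989 on day 8. It was 2.27-fold lower (-1.17 VST units, standard error 0.29, adjusted p = 0.00884) and stayed called in each of the alternatives. The calcium sensor calmodulin, Lda.17214, had 2269, 1739 and 2059 on day 11 and 3341, 2732 and 2889 on day 8, without overlap and 1.48-fold lower (-0.54 VST units, standard error 0.17, adjusted p = 0.0442). Its call was lost with voom (adjusted p = 0.129), on both log2 scales of the normalised count (0.120 and 0.123) and without single pupae (0.228 without the day 11 pupa of replicate 2, 0.0941 without the day 11 pupa of replicate 3, 0.182 without the day 8 pupa of replicate 1, 0.0693 without the day 8 pupa of replicate 2 and 0.0833 without the day 8 pupa of replicate 3).

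In the lists of cell cycle, translation, protein folding, cilia and retroelement genes few or no genes were called, beside 8.57% of all genes tested. The medians of these lists lay between -0.16 and 0.25 VST units. None of 21 cell cycle, replication and DNA repair genes was called (median 0.25), although 15 of them had positive differences. Of 17 ribosome biogenesis and translation genes, 1 fell (median -0.12). This was Lda.20365, protein L37 of the large mitochondrial ribosomal subunit, with 166, 173 and 171 normalised counts on day 11 and 286, 246 and 256 on day 8, a 1.54-fold lower level (-1.07 VST units, standard error 0.24, adjusted p = 0.00445). None of 10 protein folding and heat shock genes was called (median -0.16), and none of 14 cilia, flagella and zonadhesin genes (median -0.15). Of 57 retroelement genes, 1 fell (median -0.03). It was Lda.39305, a reverse transcriptase of a jockey element, with 0.921, 0.666 and 0.575 on day 11 and 4.56, 9.75 and 7.03 on day 8, whose adjusted p of 0.0121 became 0.0821 without the day 8 pupa of replicate 2 and 0.0650 with the 15 ESM libraries alone.

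**Figure D3:**
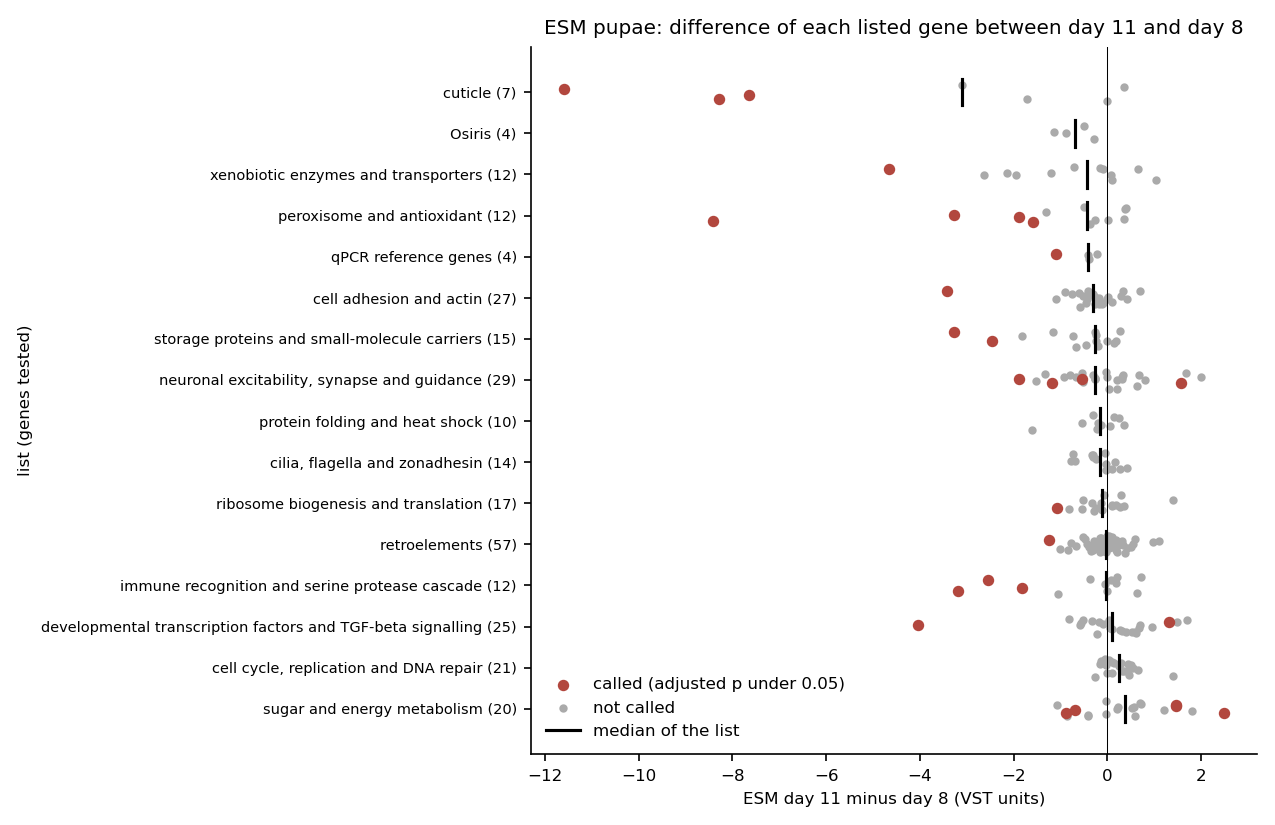
Difference between ESM day 11 and day 8 in VST units (horizontal axis) for each gene tested in the 16 lists (rows, with the number of genes tested), with called genes in red, genes not called in grey and the median of each list as a bar. The median of the cuticle list lies at -3.09 and those of the other lists between -0.70 and 0.37, and most called list members lie on the side of lower levels on day 11.

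Larger changes were found among genes without a description, which are all but 574 of the 19652 genes tested. The 2 such genes with the steepest rises, Lda.8882 and Lda.41390, had few reads on day 8. Lda.8882 had 6980.2, 5454 and 4817 normalised counts on day 11, against 9.13, 12.7 and 1.41 on day 8, a 743-fold higher level (11.82 VST units, standard error 0.45, adjusted p = 6.39e-16). Lda.41390 had 1647, 1655 and 909 on day 11 and 3.04, 0.975 and 1.41 on day 8, 776-fold higher (10.85 VST units, standard error 1.40, adjusted p = 6.88e-06), although with voom it was not called (adjusted p = 0.0641). Their means on day 5 were 21.3 and 1.88, so that both were at their highest of the 5 sampled days on day 11.

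The 2 undescribed genes with the deepest falls had no read in any day 11 pupa. Lda.40771 had 5649, 13189 and 4970.5 normalised counts in the day 8 pupae, and against the limit of 3 reads per library it was at least 3669-fold lower on day 11 (-13.61 VST units, standard error 0.42, adjusted p = 1.13e-17). Lda.16400 had 5529, 15694 and 2977 in the day 8 pupae and was at least 3729.7-fold lower on day 11 (-13.45 VST units, standard error 0.30, adjusted p = 1.39e-20). In both the day 8 pupa of replicate 2 was the highest, and without it the adjusted p was 2.67e-16 and 7.25e-21. Their means on day 5 were 4.86 and 0.376 normalised counts, and no read was found on days 1 and 3.

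Genes of this on-off kind were counted with limits of 100 normalised counts or more in all 3 pupae of a day and 10 or fewer in all 3 of the other. A total of 65 genes were off on day 11 and on at day 8, with 4 of them described. Another 10 were on at day 11 and off at day 8, with 0 described. Of all 19652 genes tested, 574 have a description. All of these were called. Of the genes that switched off, 22 had means of 10 or fewer on each of days 1, 3 and 5, and 30 already had means of 100 or more on day 5. Of the genes that switched on, 8 had means of 10 or fewer on days 1, 3 and 5. The same limits gave 60 genes that were off and 6 that were on at day 11 in ASM pupae, with 12 off in both strains (18.5% of the ESM genes and 20% of the ASM genes) and 1 on in both (10% and 16.7%). All 3 pupae of each group had to meet these limits, so a single pupa can exclude a gene. The difference of the steps was called in only 3 of the 65 ESM genes that switched off and 1 of the 10 that switched on.

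Seen over all sampled days, the genes that rose were mostly at their peak on day 11. Of the 625, 502 (80.3%) had their highest ESM mean on day 11, beside 23.2% of all genes tested. Of the 1060 that fell, 642 (60.6%) had their highest mean on day 8, beside 17.1% of all genes tested, while 198 were highest on day 5, 83 on day 3 and 137 on day 1. A total of 549 of them reached their lowest mean on day 11. The way these genes were chosen fixes part of these shares, since a gene that fell between the days cannot have its peak on day 11.

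**Figure D4:**
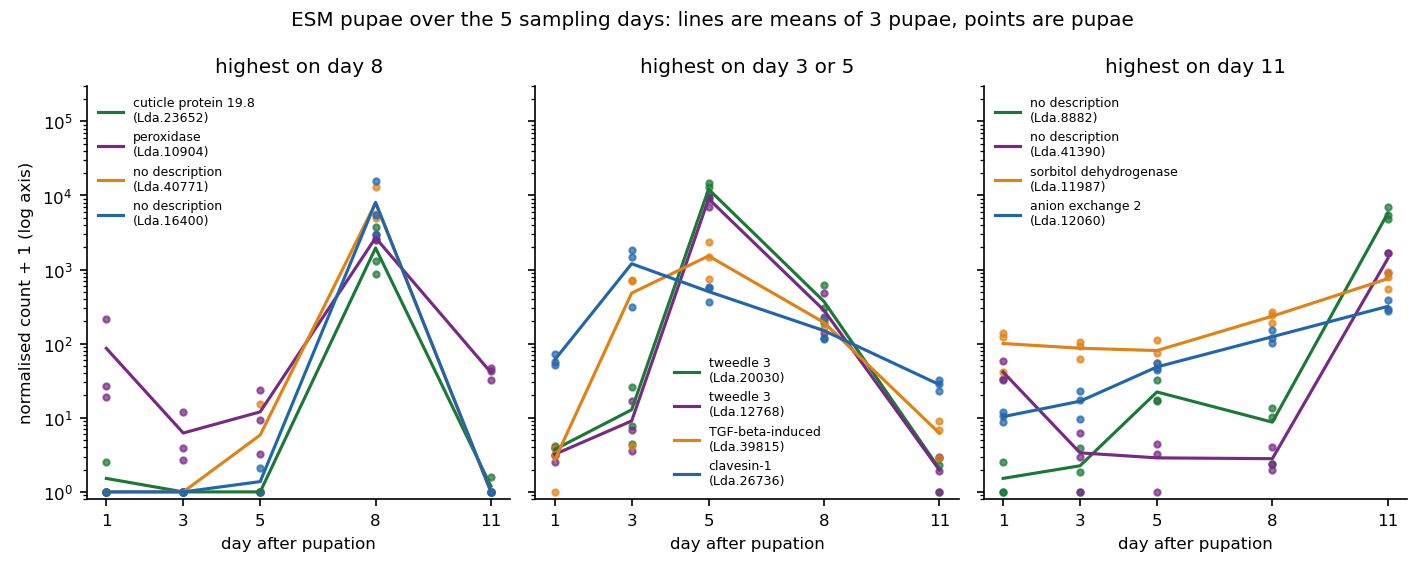
Normalised counts plus 1 (log axis) over the 5 sampled days (horizontal axis, days after pupation) of 12 genes in ESM pupae, with lines through the means of 3 pupae and points for single pupae. The left panel shows genes seen mainly on day 8, such as the cuticle protein gene Lda.23652 with 870.2, 3698 and 1294 normalised counts there, the middle panel genes that were highest on day 3 or 5 and lower on each later sampled day, and the right panel genes at their highest on day 11.

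Of the genes with the most reads, 1 was called, on a scale that is compressed at high counts. The 10 genes with the most reads in each library held 13.3% ± 1.68 of its reads on day 11 and 14.5% ± 0.528 on day 8 (SD, n = 3 each), a difference of -1.24 percentage points (exact two-sided permutation test, p = 0.3, with 0.1 the smallest value that 3 against 3 pupae allow). All 7 genes that were among the 5 with the most reads on either day have no description. Lda.19594 fell, with 24855, 20425 and 22297 normalised counts on day 11 and 80305, 69559 and 68282 on day 8, a 3.23-fold lower level without overlap (-0.91 VST units, standard error 0.21, adjusted p = 0.00663). It had means of 51597 on day 3 and 93802 on day 5. Lda.27397 had 109786, 52410.4 and 87916 on day 11 and 137559, 179321 and 170905 on day 8, and Lda.22338 had 41125, 21689 and 19870.5 on day 11 and 73159, 69459 and 74432 on day 8. In both the days did not overlap, but neither was called (adjusted p = 0.879 and 0.818). Lda.14821 had 64995, 47578 and 62968 on day 11 and 24904, 20600.4 and 32478 on day 8 (adjusted p = 0.612), also without overlap and on the higher side. It was called with voom (adjusted p = 0.0116), on the log2(normalised count + 10) scale (0.0320) and with the 6 ESM libraries alone (0.0138), which also gave a call for Lda.22338 (0.0112). Lda.14820 was not called (adjusted p = 0.257) except with voom (0.0167) and on the log2(normalised count + 10) scale (0.0212), in both cases as higher on day 11. The others were not called, at an adjusted p of 0.828 for Lda.8542 and 0.784 for Lda.14791. In Lda.14791 the days did not overlap, with lower levels on day 11.

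Of the 4 genes that the study used as qPCR references, 1 changed between these days. Actin, of the cytoskeleton and muscle, had 8071, 9577 and 10410.0 normalised counts on day 11, against 35815, 37596 and 26802 on day 8. The groups were far apart, with day 11 3.57-fold lower (-1.09 VST units, standard error 0.15, adjusted p = 1.71e-05), and the call held in each of the alternatives. GAPDH, a glycolytic enzyme, had 1198, 1258 and 961 on day 11 and 1095, 1414 and 1891 on day 8 (adjusted p = 0.620), and elongation factor 1 gamma had 3265, 2591 and 3218 on day 11 and 3525, 4079 and 3229.8 on day 8 (adjusted p = 0.392), with overlap in both. Gamma-tubulin, which nucleates microtubules, had 146, 132 and 160.0 on day 11 and 170.4, 173 and 174 on day 8. It was not called (adjusted p = 0.515), although every day 11 pupa lay below those of day 8.

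None of the 4 Osiris genes, of an insect-specific family of membrane proteins linked to cuticle formation in the fruit fly, was called between day 11 and day 8 in ESM (median -0.70). Lda.6827 (osiris 18) had 0, 1.33 and 1.15 normalised counts on day 11 and 0, 34.1 and 1.41 on day 8, and Lda.35510 (osiris 20) had 0, 1.33 and 1.15 on day 11 and 0, 14.6 and 0 on day 8. For Lda.35031, which the study also names osiris 18 and measured by qPCR, the day 11 pupae had no read and those of day 8 had 0, 16.6 and 0. For the Osiris gene Lda.35030 the day 8 pupae had 0, 2.92 and 0, which is under the limit of 3 reads on average. Nearly all day 8 reads of the 4 genes lay in the pupa of replicate 2. Without it the differences of Lda.6827 and Lda.35510 were 0.06 and 0.33 VST units, with the opposite sign and again not called (adjusted p = 0.993 and 0.911). The zonadhesin genes, known in mammals from the sperm head, had 13.8, 12.7 and 54.1 on day 11 and 30.4, 38.98 and 30.9 on day 8 in Lda.8470, and 14.7, 8.66 and 26.5 on day 11 and 24.3, 29.2 and 21.1 on day 8 in Lda.27052 (adjusted p = 0.788 and 0.728).

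The same step was set beside that of ASM pupae, which share no library with it. In ASM, 1809 genes (9.21% of those tested) were called, 755 higher (3.84%) and 1054 lower (5.36%) on day 11. Without the ASM day 11 pupa of replicate 1 there were 1187 calls, and without that of replicate 3 there were 2341. A total of 820 genes were called in both strains, 48.7% of the ESM calls and 45.3% of the ASM calls, and 818 of these moved in the same direction. The cuticle protein gene Lda.23652 differed by -11.58 VST units in ESM and -12.24 in ASM, the peroxidase Lda.10904 by -8.40 and -8.40, and sorbitol dehydrogenase Lda.11987 by 2.49 and 3.14. Several described genes that rose in ESM were not called in ASM, among them the EP3 receptor (Lda.27831), the EGLN1 homolog (Lda.13353) and HNF-4 (Lda.36672), with an adjusted p of 0.0826, 0.754 and 0.682. The test of the difference between the strains passed for none of these 3 (adjusted p = 0.709, 0.0957 and 0.126). The same held for actin, at -1.09 in ESM and -0.34 in ASM (adjusted p of the difference = 0.122). In ASM the EP3 receptor had 367, 523 and 122 normalised counts on day 11 and 166, 140 and 99.6 on day 8. Only the ASM day 11 pupa of replicate 3 overlapped day 8 there.

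The difference of the steps itself (ESM minus ASM) was called in 161 genes, 0.819% of those tested, and 1873 genes had an unadjusted p under 0.05. Of the 161, 52 were called in ESM alone, 84 in ASM alone, 24 in both and 1 in neither. The count depended on the model and on single libraries. It was 51 with voom, 93 on the log2(normalised count + 1) scale and 83 with the 12 libraries of both days alone. It was 91 and 104 without the ESM day 11 pupae of replicates 2 and 3, 83 without the ESM day 8 pupa of replicate 1, 94 without the ASM day 8 pupa of replicate 1 and 272 without the ASM day 11 pupa of replicate 2. Without the ESM day 8 pupa of replicate 2 it was 194, of which 137 were among the 161. Of the 120 genes at 3 times or more the level of both other ESM day 8 pupae in that pupa, 26 were among the 161. For the ESM day 8 pupae of replicates 1 and 3 such genes numbered 0 and 2.

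Many of the described genes with a different step had high levels in ASM pupae of day 8 and low ones in ESM. The study had named the genes of this paragraph from these same libraries, as more abundant in ASM on day 8. Their pattern here is therefore not an independent result. Osiris 20 (Lda.35510) differed between the steps by 10.89 VST units (standard error 0.97, adjusted p = 1.85e-07), with no read in the ASM pupae of day 11 and 4476, 2376 and 324 normalised counts in those of day 8. Osiris 18 (Lda.6827) differed by 10.50 (adjusted p = 6.36e-07), catalase Lda.20862 by 10.22 (adjusted p = 7.54e-09) and the tweedle gene Lda.15281 by 9.82 (adjusted p = 3.33e-05). In ASM these 3 genes had 0 to 0.643 normalised counts on day 11 and 434 to 5069.5 on day 8. The other osiris 18 gene, Lda.35031, and the Osiris gene Lda.35030 differed by 10.74 and 7.98 (adjusted p = 0.000238 and 0.000843). Zonadhesin Lda.27052 differed by 5.04 (adjusted p = 0.0409), while the other zonadhesin gene, Lda.8470, differed by 5.35 and was not called (adjusted p = 0.0649). The call of Lda.27052 was lost without any 1 of 11 of the 12 pupae, at an adjusted p of 0.0541 to 0.127, and held only without the ASM day 8 pupa of replicate 3. It was also lost on the log2(normalised count + 1) scale (0.0766) and over genes with reads in all 6 ESM pupae (0.0559). None of these 7 differences was called with voom, where their adjusted p ran from 0.0642 to 0.406.

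Choline dehydrogenase and a catalase fell in ESM, and by more in ASM. The ESM call of the catalase was lost without the day 8 pupa of replicate 2 (adjusted p = 0.121) and with voom (0.0907). The study had also named this catalase from these same libraries, as more abundant in ASM on day 8. Its difference is therefore not an independent result. Choline dehydrogenase Lda.40578, a mitochondrial enzyme that oxidises choline, had no read in the ESM pupae of day 11 and 12.2, 36.1 and 5.62 normalised counts in those of day 8, a level at least 8.30-fold lower on day 11 (-2.51 VST units, standard error 0.53, adjusted p = 0.00243). Without the day 8 pupa of replicate 2 its difference was -1.80 VST units and still called (adjusted p = 0.0329). In ASM it had 0, 0 and 1.55 on day 11 and 332, 214 and 421 on day 8, and the steps differed by 5.87 VST units (adjusted p = 3.33e-05). Catalase Lda.20867 had 0.485, 0.643 and 0 in ASM pupae of day 11 and 1537, 1209.6 and 302 in those of day 8, and its steps differed by 7.05 (adjusted p = 0.00214). With voom neither of these differences was called (adjusted p = 0.399 and 0.297), and with the 12 libraries of both days alone that of Lda.20867 was not (0.105). On the log2(normalised count + 1) scale that of Lda.40578 was not (0.176).

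Only 2 genes, both undescribed and singled out after their values were seen, were called in opposite directions with a called difference of the steps. Lda.15127 had 383, 389.7 and 289 normalised counts in ESM pupae of day 11 and 6.09, 6.82 and 9.14 in those of day 8, a 48.2-fold higher level (7.26 VST units, standard error 0.85, adjusted p = 1.65e-06). Its ESM means on days 1, 3 and 5 were 646, 1127 and 277, so that day 8 was its lowest sampled day in ESM. In ASM it had 296.6, 264 and 164 on day 11 and 1165, 1759 and 839.7 on day 8, a difference of -3.34 (adjusted p = 0.0113). Within each strain the days did not overlap, and the steps differed by 10.60 (standard error 1.20, adjusted p = 5.48e-06), which was called in each of the alternatives. Lda.17923 had 17.5, 201 and 379 in ESM pupae of day 11 and 6.09, 5.85 and 0.703 in those of day 8 (5.40 VST units, standard error 1.52, adjusted p = 0.0250), and in ASM 247, 350.4 and 3.10 on day 11 and 3685, 1480.4 and 273 on day 8. Its pupae varied widely within each group. The ESM means of Lda.17923 on days 1, 3 and 5 were 9.95, 134 and 100157, with day 5 far above day 11. In ESM the call was lost with voom (adjusted p = 0.325), on the log2(normalised count + 10) scale (0.0746) and without most single pupae (0.116 without the day 11 pupa of replicate 2, 0.166 without the day 11 pupa of replicate 3, 0.0583 without the day 8 pupa of replicate 1, 0.0611 without the day 8 pupa of replicate 2 and 0.0857 without the day 8 pupa of replicate 3), and the difference of the steps (adjusted p = 0.0148) was lost with voom (0.345), with the 12 libraries of both days alone (0.160), without the ESM day 11 pupae of replicates 2 and 3 (0.0550 and 0.0589) and without the ASM day 8 pupa of replicate 1 (0.0647).

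**Figure D5:**
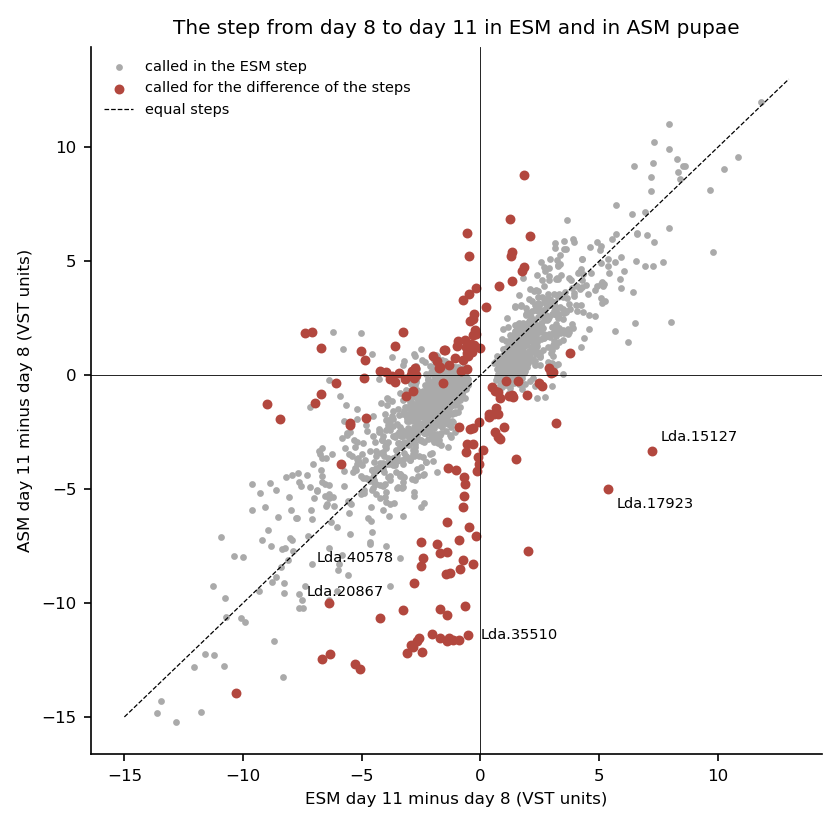
Difference between day 11 and day 8 in VST units in ESM pupae (horizontal axis) and in ASM pupae (vertical axis) for genes called in the ESM step (grey) and genes called for the difference of the steps (red), with a dashed line where both steps are equal. In all, 1533 of the 1685 genes called in ESM have the same sign in ASM, and Lda.15127 and Lda.17923 lie at higher levels on day 11 in ESM and lower levels in ASM.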

How the data were processed

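Polyadenylated RNA of whole female pupae was sequenced on an Ion Proton from directional libraries, 1 pupa each. The authors trimmed reads with Trimmomatic 0.36 after FastQC 0.11.5, aligned them with HISAT2 to a draft ASM genome, built gene models by merging with StringTie and obtained a count for each gene from featureCounts 2.0.0. ESM reads were thus aligned to the genome of the other strain, so reads lost to sequence differences enter comparisons of the strains but are shared by both days within ESM. The strand setting and the treatment of reads with several matches are not given in the sources used here. The deposited values, on a log2-like scale, are counts put through the variance-stabilising transformation (VST) of DESeq2 1.28.1 in R 4.0.2 by the authors, for 19654 genes. All columns belong to a sample of the series, with 0 left over.

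The transformation was inverted to recover counts. Between 99.85% and 99.91% of the values of the 6 libraries came out within 0.05 of a whole read. Library totals are sums of these counts over genes, 3145784 to 7179351 in the 6 libraries. Genes above the lowest value (-0.516, a count of 0) in at least 3 of the 30 libraries were kept, 19652 in all. The deposited VST values were tested with limma 3.58.1 (R 4.3.3), with 10 group means, a trended prior and 20 residual degrees of freedom, two-sided, with Benjamini-Hochberg adjustment. The count of genes called in ESM and in ASM and the difference of both steps came from this one fit. Other steps ran in Python 3.11.15 (scipy 1.17.1, pandas 2.3.3, numpy 2.4.6), figures were drawn in matplotlib 3.10.9, and the fit was tested on simulated data. Ratios against a group at 0 are bounds from 3 reads per library, and the 95% interval of a ratio of pooled counts is exact and covers counting error only. The labels give no batch or date.

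Genes were named by a rule: among described, called genes without overlap, the 12 with the largest difference each way, the 2 such genes each way without a description, the 5 described genes with the smallest p for the difference of the steps, up to 3 called members of each list, the 4 qPCR references, the 5 genes with the most reads on each day and the genes that the study names in pupae. The 16 lists hold 293 genes by description, of which 286 were tested. The members and lists were chosen with earlier results of these data known, and no test was made on a list. Alternatives were voom on recovered counts with TMM factors, log2 of the normalised count plus 1 or plus 10, fits on 6, 12 or 15 libraries, other filters, a common median, a replicate block and leaving out each pupa. The fit on 12 libraries for the ESM step, the alternatives for the ASM step and the counts of list members without single pupae were chosen after seeing the data.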

Additional observations from a re-analysis of the deposited data

Results flagged for a closer look

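The step of day 11 minus day 8 differed between the strains, by the test of that difference, in 161 of the genes tested. Among the genes named in the text it differed (ESM minus ASM) by 10.89 VST units for Lda.35510 (osiris 20), 10.50 and 10.74 for Lda.6827 and Lda.35031 (both osiris 18), 7.98 for the Osiris gene Lda.35030, by 10.22 and 7.05 for the catalases Lda.20862 and Lda.20867, by 9.82 for the tweedle gene Lda.15281, by 5.87 for choline dehydrogenase Lda.40578, by 5.04 for zonadhesin Lda.27052, and by 10.60 and 10.39 for the undescribed Lda.15127 and Lda.17923. Each was singled out because the test of the difference passed in the model of all 30 libraries. The Osiris, catalase, tweedle and zonadhesin genes here had already been named by the study from these same libraries. With voom only the difference of Lda.15127 was called, and the part of colony and diet, which differ together with strain, cannot be told apart. The day 8 pupa of replicate 2, which held most of the ESM reads of the Osiris genes, is among the 3 ESM pupae of day 8 behind these values. Without it each of these differences was called except that of Lda.27052 (adjusted p = 0.0541).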

How the results depend on the processing

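The ESM step gave 1432 to 1896 called genes under voom, both log2 scales, other filters, a common median and fits on 12 or 15 libraries, and 2617 with the 6 ESM libraries alone, whose spread leaves out the other groups. Leaving out a pupa gave 1128 to 1359. For the difference of the steps the count was 51 with voom, 93 on the log2(normalised count + 1) scale, 83 with the 12 libraries alone, and 83 to 272 when a pupa was left out. For the ASM step it was 1187 to 2341 when a pupa was left out and 1692 to 2296 otherwise. The cause of these shifts was not tested. A common median moved the ESM libraries by 0.0277 VST units between the days and gave 1690 calls. The difference in the share of the top genes was -1.24 percentage points for 10 genes and -2.62 for 50 (exact permutation p = 0.2).

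Of 44 named genes called in the ESM step, 24 were called in each alternative that tested them and 20 lost the call in at least 1, and 0 changed direction. Among named genes that were not called, Lda.35510 ran from -0.92 to 0.33 VST units and Lda.6827 from -1.86 to 0.0593 when a pupa was left out, with the positive values without the day 8 pupa of replicate 2. The replicate numbers do not pair the pupae: deviations of same-numbered ESM pupae correlated at -0.0502 to 0.0916, and not every pupa correlated best with its own number. With the replicate number as a block, 1614 genes were called in ESM, 1793 in ASM and 178 for the difference of the steps, and of the named ESM calls those of Lda.5043 (adjusted p = 0.0503) and Lda.17214 (0.0613) were lost, as was the difference of the steps of Lda.27052 (0.0601). The libraries held 3145784 to 7179351 reads, so values of genes with few reads, such as Lda.39305, carry a wide counting error.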
